A study of Homo sapiens with 4 samples.

Results

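The genes described here are 7 genes of fatty acid synthesis and desaturation: SREBF1, ACACA, FASN, ELOVL6, SCD, FADS1 and FADS2. Their members are all lines of the authors' deposited table that name one of these genes, 57 of 95312 lines, or 56 of 91107 distinct regions, because a single region is listed with both FADS1 and FADS2. The table reports H3K27ac, an acetylated form of histone H3 found at active promoters and enhancers, measured by ChIP-seq (immunoprecipitation of chromatin followed by sequencing) in A375 cells, a long-established line of human melanoma. Of the 4 libraries in the labels, 2 came from cells kept for 48 hours with 1 mM octanoate, a fatty acid of medium chain length, and 2 from cells kept as long with isopropanol, its vehicle, all in medium with serum. A single line was used, and no other genotype or treatment is labelled. The authors' deposited table gives each region a mean level, a log2 fold change between the groups, its standard error and p-values, and no value per library. Its header does not name the numerator of the fold change, so a positive value is not read here as a gain or a loss under octanoate.

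Cells make long-chain fatty acids from acetyl-CoA. ACACA carboxylates acetyl-CoA to malonyl-CoA, FASN builds palmitate from it, ELOVL6 lengthens palmitate, and SCD places the first double bond in saturated chains. FADS2 and FADS1 are the desaturases that act in turn on dietary polyunsaturated fatty acids, and SREBF1 encodes SREBP-1, the transcription factor that drives most of these genes. Polyunsaturated fatty acids are known to hold SREBP-1 activity down, and melanoma lines differ in how far they rely on SCD.

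Each gene had exactly 1 region at distance 0, read here as overlap with the gene's start, and the number elsewhere ranged widely. ACACA had 21 regions away from its start, ELOVL6 9, SCD 8, FASN 5, SREBF1 4, FADS2 2 and FADS1 1. Measured against the RefSeq gene bounds, 41 of these 50 regions lay in the body of the gene they are listed with, 8 upstream of it and 1 downstream. In the authors' deposited table all 6 start regions and 13 of the 50 others had an adjusted p-value. The remaining 37 carried no computed adjusted p-value there, and their mean levels ended at 16.6. As a check of the cell type, regions at starts were present in the authors' deposited table for 4 of 7 melanocytic and neural crest genes, absent for MLANA, TYR and DCT, and present for 4 of 4 genes of the dedifferentiated melanoma state. Those of the dedifferentiated state were AXL, NGFR, SOX9 and JUN. None of 6 marker genes of blood, keratinocyte, liver or endothelial cells had one. The share of all genes with a region at the start was not computed, so these counts do not assign a melanoma state.

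**Figure D1:**
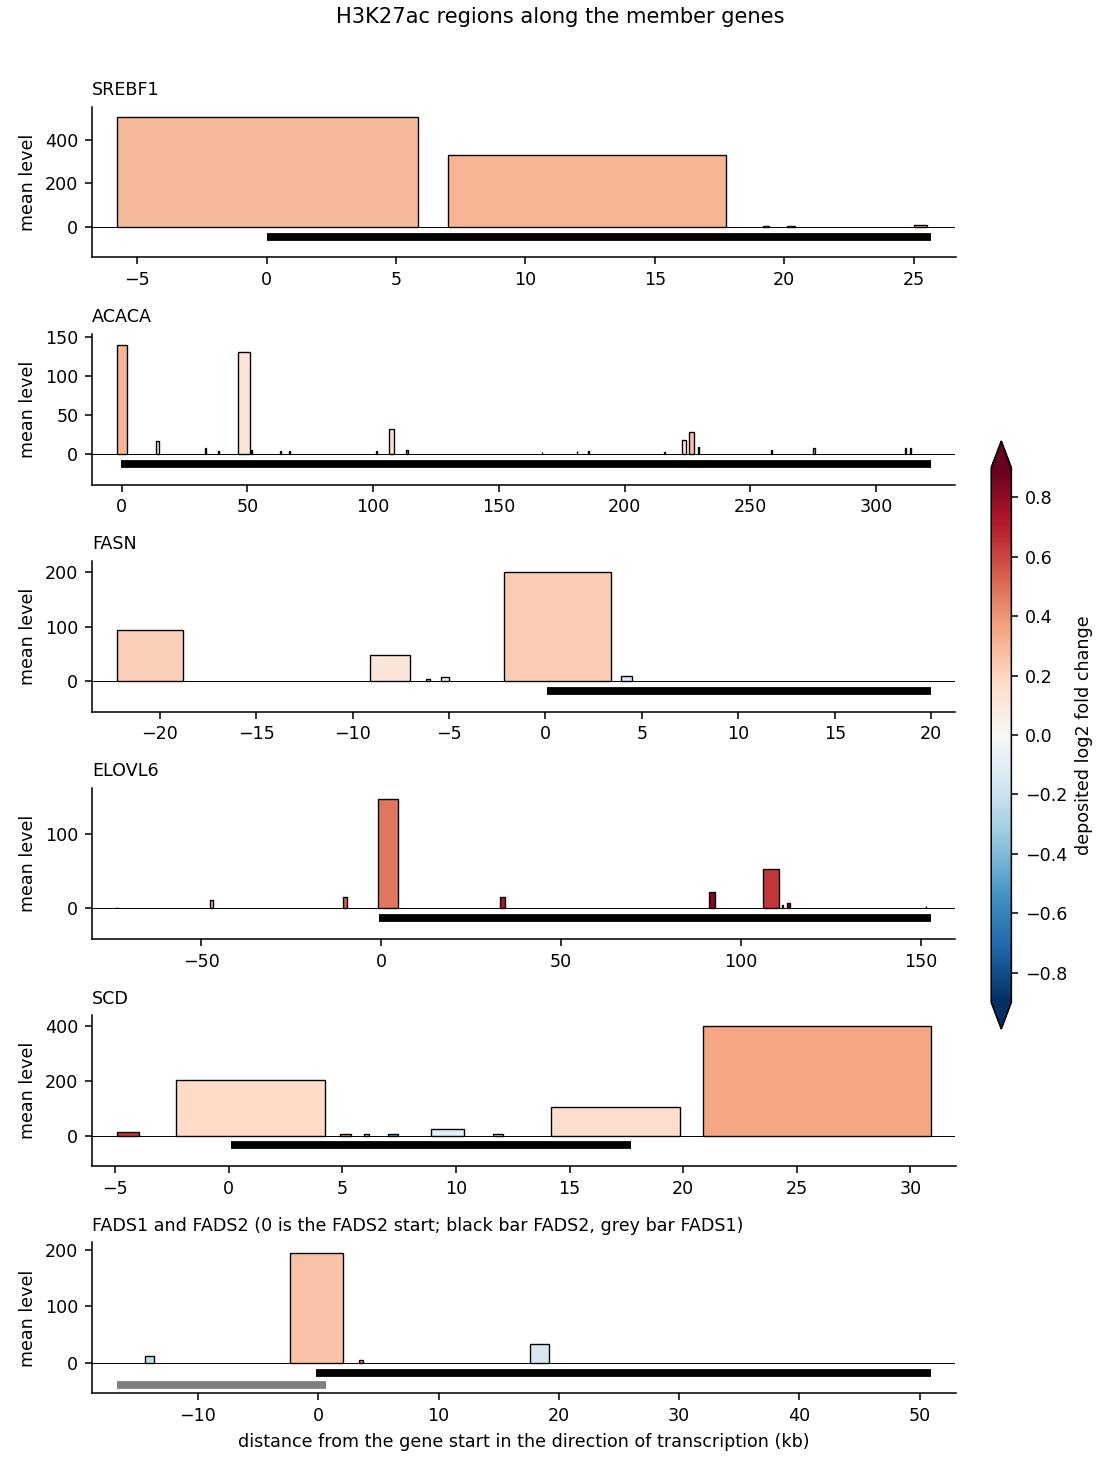
Mean H3K27ac level of every region of the 7 genes against its distance from the gene start in kb, drawn in the direction of transcription, with region width to scale, colour for the deposited log2 fold change and a bar for the RefSeq gene. SREBF1 carried broad regions of 502 and 330, and the highest SCD region lay beyond the end of the gene at 400. Of the 10 ELOVL6 regions 9 were positive, beside 73.7% of all regions.

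The start windows shown next are the 250 bases before RefSeq starts that lie inside these regions. They were chosen to show the 3 ACACA starts, which carried different levels of H3K27ac, and the FADS1 start and inner FADS2 start that share a region. SCD and ELOVL6 were added because their start regions had the lowest and the highest fold change of the 7 genes. The window of the outer FADS2 start, in that shared region, is not printed and held no match to the letters marked here. Capitals mark CCAAT, the box bound by NF-Y, and GGGCGG, the GC box bound by SP1, on either strand.
ACACA, the outermost start, chr17:37406837-37407086, minus strand: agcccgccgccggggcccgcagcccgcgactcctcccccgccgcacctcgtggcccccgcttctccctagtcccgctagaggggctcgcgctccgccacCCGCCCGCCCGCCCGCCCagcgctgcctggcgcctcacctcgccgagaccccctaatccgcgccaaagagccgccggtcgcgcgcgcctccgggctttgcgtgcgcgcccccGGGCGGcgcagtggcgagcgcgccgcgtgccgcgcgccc
ACACA, the second start, chr17:37359097-37359346, minus strand: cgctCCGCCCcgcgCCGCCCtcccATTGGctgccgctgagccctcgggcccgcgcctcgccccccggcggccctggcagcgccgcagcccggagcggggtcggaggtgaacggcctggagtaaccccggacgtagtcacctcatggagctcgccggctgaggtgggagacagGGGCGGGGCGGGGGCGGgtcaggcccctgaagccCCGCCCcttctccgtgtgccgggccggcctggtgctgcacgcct
ACACA, the third start, chr17:37299768-37300017, minus strand: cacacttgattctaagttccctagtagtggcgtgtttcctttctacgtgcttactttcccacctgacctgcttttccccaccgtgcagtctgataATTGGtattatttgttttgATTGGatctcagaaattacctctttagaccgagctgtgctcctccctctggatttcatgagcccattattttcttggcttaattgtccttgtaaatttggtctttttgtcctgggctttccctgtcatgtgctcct
SCD, chr10:100346983-100347232, plus strand: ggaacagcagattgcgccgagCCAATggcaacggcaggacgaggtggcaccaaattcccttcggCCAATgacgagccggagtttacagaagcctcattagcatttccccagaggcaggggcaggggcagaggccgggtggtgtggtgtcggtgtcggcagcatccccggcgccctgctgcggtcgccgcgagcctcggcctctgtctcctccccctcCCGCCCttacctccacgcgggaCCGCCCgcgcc
ELOVL6, chr4:110198616-110198865, minus strand: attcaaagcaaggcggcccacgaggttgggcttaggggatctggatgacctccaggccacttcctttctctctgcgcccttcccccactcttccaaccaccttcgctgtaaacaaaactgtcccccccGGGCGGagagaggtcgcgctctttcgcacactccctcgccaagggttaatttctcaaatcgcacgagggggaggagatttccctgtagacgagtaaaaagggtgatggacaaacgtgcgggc
FADS1, chr11:61817004-61817253, minus strand: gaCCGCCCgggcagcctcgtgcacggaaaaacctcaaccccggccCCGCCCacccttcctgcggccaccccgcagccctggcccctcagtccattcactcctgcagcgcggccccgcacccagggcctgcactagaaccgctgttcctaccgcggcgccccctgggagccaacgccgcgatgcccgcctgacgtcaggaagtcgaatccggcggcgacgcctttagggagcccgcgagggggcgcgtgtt
FADS2, the inner start, chr11:61816154-61816403, plus strand: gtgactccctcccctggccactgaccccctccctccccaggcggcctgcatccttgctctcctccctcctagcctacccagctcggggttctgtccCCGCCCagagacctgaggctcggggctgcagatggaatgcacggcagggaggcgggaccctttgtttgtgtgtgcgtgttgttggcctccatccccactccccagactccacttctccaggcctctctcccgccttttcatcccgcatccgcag

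Sequences and starts are those of RefSeq on GRCh38.p14, the build that the submitters' processing notes name as hg38. RefSeq windows matched 6 of the 7 genes, with 9 windows in all, and FASN had none. At least 1 GC box was found in 7 of the 9 windows and in every one of the 6 genes, where 42.6% of all 35116 windows held one. That share counts windows and not genes, and ACACA had 3 windows. The 7 windows with a GC box held from 57.2% to 81.6% G and C, beside a median of 58.0% over all windows. Whether base composition accounts for these matches was not tested. In the outermost ACACA window 4 of its 5 matches overlap in a run of repeats. CCAAT was found in 3 windows, those of SCD, with 2 matches, and of the second and the third ACACA start, against 32.0% of all windows. TCACNCCAC, a form of the sterol regulatory element bound by SREBP, was found in 0 of the 9 windows and in 0.883% of all windows. CACGTG, the E-box, was likewise in 0 of 9 and in 6.34% of all. The direct repeats of AGGTCA spaced by 1 base (DR1, the PPAR response element) and by 4 bases (DR4, the LXR response element) were in 0 of 9 and in 0.0171% and 0.0142% of all. These counts cover the letters of these windows only.

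SREBF1 had the highest level at a start among the 7 genes. Its start region (chromosome 17, 17831171 to 17842800) was 11629 bases wide with a mean level of 502 in the authors' deposited table, higher than 99.1% of all tested regions at starts. Per kb of region that level was 43.1, at percentile 97.5 of the same regions. In the authors' deposited table it had a log2 fold change of 0.29 ± 0.21 (standard error; 95% interval -0.11 to 0.69; adjusted p 0.404). A further region of 10726 bases lay inside the gene (17819255 to 17829981), 7022 bases from the start. It had a mean level of 330 and 0.31 ± 0.21 in the authors' deposited table (adjusted p 0.380), so the fold changes of the broad SREBF1 regions differed by much less than either standard error. SREBF1 is known to use an internal promoter for a shorter isoform, but the RefSeq windows used here hold no start for it. The other 3 SREBF1 regions in the authors' deposited table had mean levels from 5.10 to 8.44 and log2 fold changes from -0.63 to 0.27.

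The SREBF1 gene also hosts the hairpin of miR-33b, a microRNA known to act with SREBP in lipid balance, and FADS1 hosts that of miR-1908. Their mature 5p sequences are given because one lies outside the H3K27ac regions and the other inside them, with the seed, bases 2 to 8, in capitals.
hsa-miR-33b-5p, chr17:17813897-17813916, minus strand: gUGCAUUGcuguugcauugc
hsa-miR-1908-5p, chr11:61815209-61815229, minus strand: cGGCGGGGacggcgauugguc

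The miR-33b-5p sequence lay 1919 bases from the nearest region of the authors' deposited table. The miR-1908-5p sequence lay inside the region shared by FADS1 and FADS2. The pair share no seed.

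ACACA carried regions at all 3 of its RefSeq starts, and only the outermost is at distance 0 in the authors' deposited table. The region at that start (chromosome 17, 37404707 to 37408802), which is also listed with TADA2A on the opposite strand, had a mean level of 141 and a log2 fold change of 0.31 ± 0.26 (standard error, adjusted p 0.465) in the authors' deposited table. The second start lies 47740 bases further in, inside a region of 4795 bases (37355848 to 37360643). That region had a mean level of 132 and 0.12 ± 0.22 in the authors' deposited table (adjusted p 0.735). The third start lies 107069 bases in, inside a region of 1855 bases (37298466 to 37300321) with a mean level of 32.0 and 0.15 ± 0.33 in the authors' deposited table (adjusted p 0.775). Per kb the 3 regions had levels of 34.4, 27.5 and 17.3. The windows printed for these starts fell in the same order of base composition, with 81.6%, 78.0% and 43.6% G and C and 45, 30 and 4 CpG dinucleotides, where the median window of RefSeq held 58.0% and 11. With 3 starts this order is a description. The fold changes at the 3 starts lay within each other's 95% intervals in the authors' deposited table.

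Away from its RefSeq starts, ACACA had 19 further regions across its body, and 16 regions of the gene had a mean level under 10. The highest of the 19 in the authors' deposited table lay 225420 bases from the start (37179192 to 37181361), with a mean level of 27.9 and 0.27 ± 0.33 (standard error, adjusted p 0.606). Its neighbour at 222768 bases (37182577 to 37184013) had a level of 18.6 and 0.09 ± 0.41 in the authors' deposited table (adjusted p 0.894). The smallest p-value away from the start belonged to a region at 63028 bases (37343395 to 37343753) with a log2 fold change of -1.14 in the authors' deposited table. At its mean level of 4.21 the 95% interval ran from -2.80 to 0.51, and no adjusted p-value had been computed. Over all 22 ACACA regions of the authors' deposited table, 14 were positive and 8 negative, with a median of 0.11.

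FASN carried 55.1% of the summed level of its regions, and 45.3% of their summed width, at its start. The start region (chromosome 17, 82094955 to 82100477) had a mean level of 201, or 36.4 per kb, and a log2 fold change of 0.23 ± 0.24 (standard error, 95% interval -0.25 to 0.70, adjusted p 0.562) in the authors' deposited table. Upstream of FASN, 4 regions lay within the neighbouring gene CCDC57 by the RefSeq gene table. The broadest of them, 18815 bases from the start (82117147 to 82120574), had a mean level of 94.0 and 0.22 ± 0.25 in the authors' deposited table (adjusted p 0.577). The one at 7006 bases (82105338 to 82107410) had 48.8 and 0.12 ± 0.30 there (adjusted p 0.812). The FASN regions with an adjusted p-value thus lay between 0.12 and 0.23, a spread smaller than any of their standard errors. The other 3 FASN regions had mean levels from 4.23 to 8.75 and log2 fold changes from -0.14 to 0.18 in the authors' deposited table.

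ELOVL6 had the largest positive values of the 7 genes, and 9 of its 10 regions were positive in the authors' deposited table, beside 73.7% of all regions. The start region (chromosome 4, 110194106 to 110199522) had a mean level of 147 and a log2 fold change of 0.48 ± 0.23 (standard error), a ratio of 1.40, in the authors' deposited table (p-value 0.0345 before adjustment and 0.238 after it). Its fold change ranked at percentile 74.4 of all tested regions at starts, where those of the other start regions described here ranked between 15.4 and 40.2. Inside the gene, a region 106094 bases from the start (110088238 to 110092583) had a mean level of 53.5 and 0.65 ± 0.26 in the authors' deposited table (unadjusted p 0.0125, adjusted 0.168). A region at 90997 bases (110106006 to 110107680) had a level of 22.4 and 0.82 ± 0.38 in the authors' deposited table (unadjusted p 0.0311, adjusted 0.230). These 3 were the only regions of the 7 genes with an unadjusted p-value under 0.05 in the authors' deposited table, and none passed after adjustment. In the authors' deposited table the ELOVL6 regions without an adjusted p-value included one at 32970 bases (0.73 ± 0.43) and one 9548 bases upstream (0.55 ± 0.47). The negative one, with -0.37, had the lowest mean level, 1.62. The median over the 10 ELOVL6 regions of the authors' deposited table was 0.53, against 0.14 over the 46 regions of the other 6 genes. Over all regions of that table the median was 0.28. The ELOVL6 regions had a median level of 13.1 and the 46 others 8.12. Among tested regions alone the median fold changes were 0.65 over 3 ELOVL6 regions and 0.20 over 16 others. The regions come from the same 4 libraries and the difference between the genes was not tested.

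**Figure D2:**
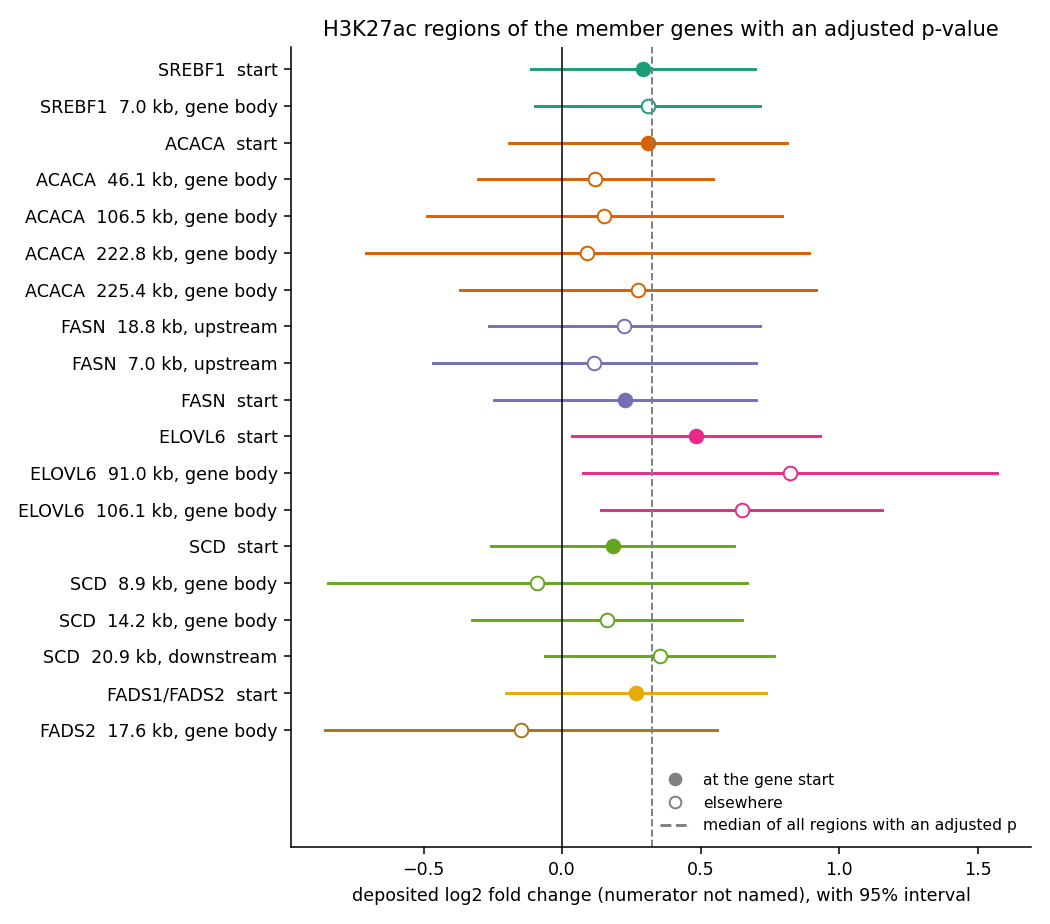
Deposited log2 fold change, with the 95% interval from the authors' standard error, for the 19 regions of the 7 genes that have an adjusted p-value. Filled points are regions at starts and open points are others, labelled by distance in kb. The dashed line marks 0.32, the median over all regions of the table with an adjusted p-value. The 3 ELOVL6 intervals are the ones that do not cross 0, and each of them includes 0.32.

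SCD was the one gene whose highest region did not lie at its own start. Its start region (chromosome 10, 100344805 to 100351332) had a mean level of 204, or 31.2 per kb, and a log2 fold change of 0.18 ± 0.22 (standard error, 95% interval -0.26 to 0.62, adjusted p 0.613) in the authors' deposited table. This was the smallest fold change among the 6 start regions. A region of 10035 bases beyond the end of the gene (100367997 to 100378032), 20874 bases from the SCD start, had a mean level of 400, or 39.9 per kb, and 0.35 ± 0.21 in the authors' deposited table (unadjusted p 0.0946, adjusted 0.338). It covers the RefSeq start of OLMALINC, a long noncoding RNA gene, and SCD is the gene the table lists it with. A region over the 3' end of SCD (100361318 to 100366959) had a mean level of 104 and 0.16 ± 0.25 in the authors' deposited table (adjusted p 0.690). Within the gene, the region at 8879 bases (100356002 to 100357483) had 24.1 and -0.09 ± 0.39 there (adjusted p 0.890). The remaining 5 SCD regions of the authors' deposited table had mean levels from 3.97 to 13.6 and log2 fold changes from -0.46 to 0.64, all with 95% intervals that include 0.

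FADS1 and FADS2 share their start region and therefore a single value. RefSeq places the FADS1 start 599 bases from the inner FADS2 start and 800 from the outer one, and the genes run in opposite directions with overlapping 5' ends. The region (chromosome 11, 61814040 to 61818461) covers all of these starts, with a mean level of 194 and a log2 fold change of 0.27 ± 0.24 (standard error, 95% interval -0.20 to 0.74, adjusted p 0.497) in the authors' deposited table. At 43.9 per kb it had the highest level per length among the 6 start regions, at percentile 97.9 of all tested regions at starts. Little H3K27ac was listed elsewhere for these genes, and the start region held 94.3% of the summed level of FADS1 and 83.4% of that of FADS2. It also made up 85.3% of the summed width of the FADS1 regions and 69.9% of that of the FADS2 regions. Inside FADS2, the region at 17569 bases (61833972 to 61835548) had a mean level of 33.2 and -0.15 ± 0.36 in the authors' deposited table (adjusted p 0.801), and the region at 3420 bases (61819823 to 61820148) had 5.59 and 0.45 ± 0.71. The FADS1 region at 14380 bases (61802019 to 61802783) had a mean level of 11.7 and -0.22 ± 0.49 in the authors' deposited table.

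Across the 7 genes, 0 of 19 tested regions passed 0.05 in the authors' deposited DESeq2 comparison, where 1.67% of the 36436 tested regions of the whole table did. At an unadjusted p-value under 0.05 there were 3 of 19, all positive, beside 17.9% of all tested regions with such a p-value and a positive change. For the starts alone the counts were 0 of 6 beside 0.860% and 1 of 6 beside 19.2%. No call of the authors' deposited table had a fold change of less than 0.65 in size, and the standard errors of the 6 start regions ran from 0.21 to 0.26. That 0.65 is an observed minimum over the whole table and not a detection limit for the 7 genes. The start region of ELOVL1, an elongase gene outside the 7, had 0.67 ± 0.23 (standard error). It was not a call (DESeq2 adjusted p 0.0922). The size of change that would have been called at the 6 start regions was not determined. The intervals given for each start allow values from below 0 to at least 0.62, except for ELOVL6, whose interval ran from 0.04 to 0.93.

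All 6 start regions were positive in the authors' deposited table, as were 98.1% of all tested regions at starts, and relative to the median of 0.32 over all tested regions 5 of the 6 lay below it and ELOVL6 above. The median of the 6 was 0.28, beside 0.35 for all tested regions at starts. Of the 50 regions elsewhere, 31 were positive in the authors' deposited table, or 62.0%, beside 70.5% of all regions away from starts, with medians of 0.15 and 0.26. Many levels were low: 31 of the 56 regions had a mean level under 10, and the median level away from starts was 7.88 for the 7 genes and 9.94 for the whole table. Among the 13 of the 50 that had an adjusted p-value, 11 were positive, or 84.6%, beside 83.2% of all tested regions elsewhere. Their medians were 0.16 and 0.31. Whether the positive shift of the whole table is a scaling between libraries or a change in acetylation cannot be told apart from these values.

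**Figure D3:**
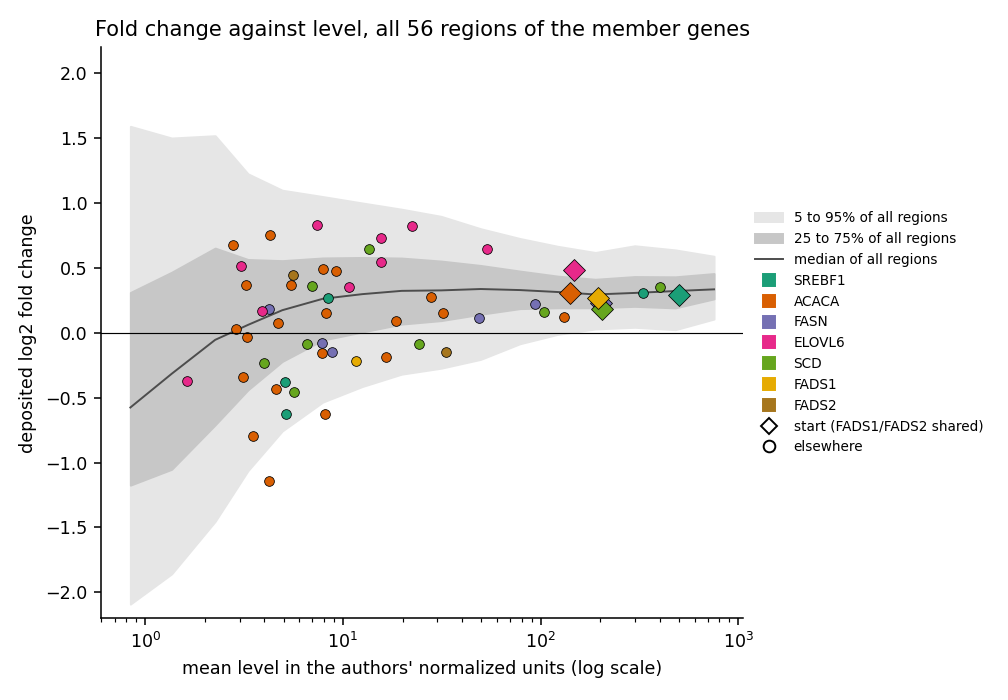
Deposited log2 fold change against mean level on a log axis for the 56 regions of the 7 genes, with diamonds for start regions, over the median and the central 50% and 90% of all 91107 regions by level. Start regions of 5 genes or pairs sit at or below the median line between 0.18 and 0.31, ELOVL6 sits above it at 0.48, and values spread widely at mean levels under 10.

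The start regions were high and wide compared with others. In the authors' deposited table their mean levels lay between 141 and 502, beside a median of 87.8 over all tested regions at starts, and ranked between percentile 76.7 for ACACA and 99.1 for SREBF1. Their widths ran from 4095 to 11629 bases, beside a median of 3316.5. Per kb, which divides by width but need not remove its effect, the levels ran from 27.1 for ELOVL6 to 43.9 for FADS1 and FADS2, beside 25.8. In this order ELOVL6 was followed by SCD at 31.2, ACACA at 34.4, FASN at 36.4 and SREBF1 at 43.1. No spread between libraries was available to say which neighbours in this order differ.

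A wider list of 38 genes of fatty acid synthesis, elongation, desaturation and their regulation gave the setting for these values. Regions were listed for 35 of them, 160 in all, of which 29 lay at starts. Of the 160, 70 were tested in the authors' deposited table and 0 were calls, beside 1.67% in general. An unadjusted p under 0.05 was listed for 7 of the 70, beside 18.4% of all tested regions. A further 3 with such a value had no computed adjusted value. Of the 160, 126 were positive, or 78.8%, beside 73.7% of all regions, with medians of 0.31 and 0.28. All 29 at starts were positive, beside 97.7% of all regions at starts, with medians of 0.35 and 0.36. The smallest p-value belonged to a region 29975 bases from CYB5R3, a reductase that passes electrons to cytochrome b5 (chromosome 22, 42679543 to 42682878), with 0.94 ± 0.31 (standard error, adjusted p 0.0847) in the authors' deposited table. The start region of the list with the highest level, at ELOVL1, the elongase of very long saturated chains (chromosome 1, 43365628 to 43374868), had a mean level of 302 and 0.67 ± 0.23 in the authors' deposited table (adjusted p 0.0922). In the authors' deposited table the fold changes at the list's starts ran from 0.09 for MLX, the partner of the carbohydrate-responsive factor MLXIPL, to 1.23 for ELOVL7, which had a mean level of 17.2 and no computed adjusted p-value. Among genes that control SREBP, SCAP, its escort, had 0.41 ± 0.24 in the authors' deposited table. INSIG1 and INSIG2, which retain that escort in the endoplasmic reticulum, had 0.28 ± 0.24 and 0.55 ± 0.33 there. MBTPS1 and MBTPS2, the proteases that release the active factor, had 0.12 ± 0.26 and 0.19 ± 0.25 in the authors' deposited table.

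**Figure D4:**
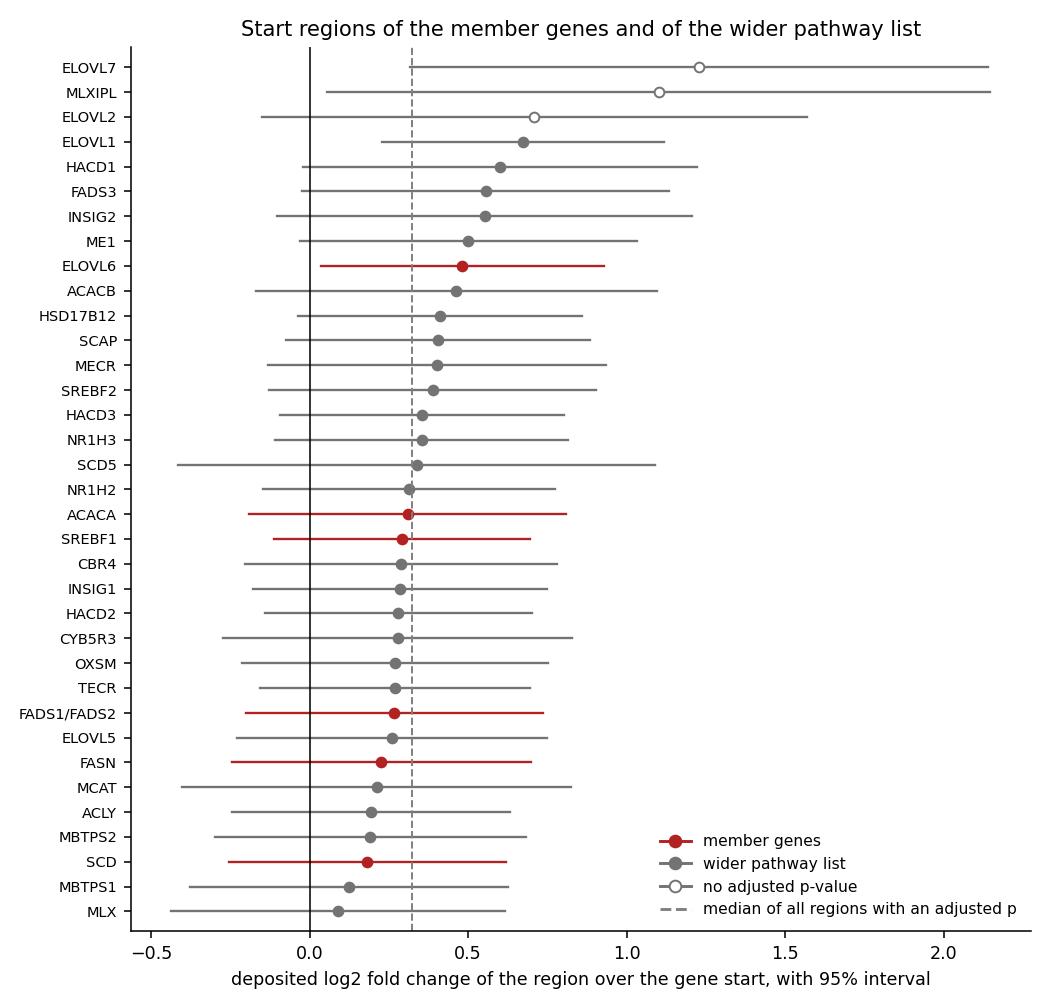
Deposited log2 fold change of the region over the gene start, with the 95% interval from the authors' standard error, for the 6 start regions of the 7 genes in red and 29 genes of the wider list in grey, open where no adjusted p-value was computed. All 35 values are positive, and SCD at 0.18 and ELOVL6 at 0.48 bound the red points.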

How the data were processed

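H3K27ac was profiled in 2 vehicle and 2 octanoate libraries, grouped by the treatment in the labels. The submitters' processing notes name hg38, Trim Galore, cutadapt, FastQC, Bowtie2, Picard, MACS2, featureCounts, DESeq2 and bedtools 2.29.1, with no role or order. The authors deposited 1 table of their own comparison, and the number of other columns of single libraries was 0. Per the file headers it holds a mean signal per region normalized by the authors, a log2 fold change with its standard error, a score that is their ratio, and p-values. The deposited p-value adjusted for multiple testing is 1 where the mean level was at most 18.44, read as not computed. Depth per library is unknown. The designed test across libraries was not possible, so the authors' DESeq2 values are described.

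Lines repeating a region were merged. Intervals of 95% use the deposited standard errors and cover what the authors' model covers. Separate cultures are not stated in the labels, so p-values may measure technical spread only. Distances away from 0 pointed to a single start per gene within 1 base, 1 to 160 bases from the nearest RefSeq start. Percentiles are among the 9996 tested regions at distance 0. Motifs were searched on both strands in the 250 bases before each start. Named regions are those at starts and, elsewhere in each gene, those with the smallest p-value, the extreme fold changes among tested regions or the highest level; the regions at the third ACACA start, at the 3' end of SCD and the untested ELOVL6 regions fall outside this rule and were chosen after their values were seen, as were MLX, ELOVL7 and the genes that control SREBP. The members and lists were chosen with earlier results of these data known. The alternatives tried were a stricter threshold, a minimum fold change, adjustment over all regions, centring on the median, filters on level, other distance limits and leaving out each gene. Procedures were tested on simulated data with Python 3.11.15, NumPy 2.4.6, pandas 2.3.3 and SciPy 1.17.1.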

Additional observations from a re-analysis of the deposited data

How the results depend on the processing

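The authors' deposited table held 0 calls beside the 7 genes. The count was also 0 at an adjusted p-value under 0.01, among regions that changed by 1 or more on the log2 scale, and over all lines. With 0 calls at 0.05 these settings could return nothing else, so they add no support. After adjustment over all distinct regions the count was 0, and the lowest adjusted p-value of 20 named regions was 0.375. After centring on the median of 0.32 it was 0 as well, with an adjusted p-value of 0.9999 for all 17 named regions with one. Centring turned 11 of these 17 values negative, to -0.0509, -0.23, -0.20 and -0.0147 for the ACACA regions starting at 37179192, 37182577, 37355848 and 37404707, -0.0566 for the shared FADS region, -0.10, -0.21 and -0.10 for FASN (82094955, 82105338, 82117147), -0.14 for the SCD start and -0.0152 and -0.0334 for SREBF1 (17819255, 17831171), by construction. The ELOVL6 regions starting at 110088238, 110106006 and 110194106 stayed positive after centring, at 0.32, 0.50 and 0.16. So did the SCD region starting at 100367997, at 0.03. Values already negative went to -0.41 for SCD (100356002) and -0.47 for FADS2 (61833972). The median over all 56 regions was 0.17, and 0.30 with 1 region a gene, the highest, 0.27 at a mean level of at least 10 and 0.23 for tested regions. With each gene left out, the medians ran from 0.14 without ELOVL6 to 0.23 without ACACA over all regions, and from 0.09 without ELOVL6 to 0.18 without ACACA away from starts, where the median over all was 0.15. No paired analysis was possible because single libraries have no values in the table, and for that reason the fits on counts, without each library and with a replicate block were not run.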
